A study of Sus scrofa with 2 samples.

Results

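The genes described here encode the proteins that write, remove and read marks on DNA and histones and the proteins that move nucleosomes. They were taken from the deposited transcript tables by their protein description (DNA (cytosine-5)-methyltransferase, methylcytosine dioxygenase, methyl-CpG, histone-lysine methyltransferase, lysine-specific demethylase, histone deacetylase, histone acetyltransferase, bromodomain, chromodomain, SWI/SNF, SMARC or polycomb), with SMARCA2 added by its listed symbol LOC100157302. This gave 100 of the 12535 genes with a read in either library. The rule reads descriptions and not measured values, and it was written with earlier results of these data known. They fell into 6 classes, with 14 entries of the DNA methylation machinery, 22 histone writers, 20 histone erasers, 11 polycomb entries, 6 other readers and 27 remodellers.

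Newborn piglets cloned by somatic cell nuclear transfer were compared, and biceps femoris muscle was taken on Day 1. The abnormal cloned group had enlarged tongues, trouble standing and walking, and umbilical defects, and the normal cloned group is labelled as normal. RNA of 3 abnormal piglets was pooled into 1 library, and RNA of 4 normal piglets, given as 3 in the sample labels, into another. All the abnormal piglets and 2 of the normal piglets came from embryonic fibroblasts of 1 male, and the remaining normal piglets came from ear fibroblasts of another male, so donor and group cannot be fully told apart. Neither group has a replicate library, and every test compares these libraries and not the conditions.

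DNA methyltransferases (DNMT) add methyl groups to cytosines, TET dioxygenases oxidise them as a step towards their removal, and methyl-CpG-binding domain (MBD) proteins recognise them. Histone methyltransferases and acetyltransferases mark histone tails, demethylases and deacetylases take these marks away, and bromodomain or chromodomain proteins bind them. Polycomb complexes keep developmental genes silent, while SWI/SNF, ISWI and CHD remodellers slide or evict nucleosomes with the energy of ATP. In cloning, an egg has to reset the marks that the donor nucleus carried, which is why these genes are of interest in cloned animals.

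Uniquely mapped reads on the listed transcripts summed to 6.38 M in the abnormal library and 6.52 M in the normal library. Mitochondrial transcripts took 36.0% of the abnormal and 46.1% of the normal reads. Of the 2 skeletal muscle markers found by symbol, skeletal actin ACTA1 was high in both libraries, with 42258 RPKM (abnormal) and 37387 RPKM (normal), while slow myosin MYH7 was called down, at 3.12 and 35.9 RPKM. The levels here are in RPKM, reads scaled by transcript length in kilobases and by the mapped reads of the library. White blood cell markers summed to 0.570 and 1.76 RPKM, fibroblast markers to 834 and 905 RPKM, red blood cell markers to 480 and 693 RPKM and liver markers to 41.2 and 56.9 RPKM. Most of the red blood cell sum was HBB (472 and 686 RPKM), while ALAS2 had 86 and 84 reads and SLC4A1 21 and 5 reads. The fibroblast sum was mostly COL1A2 (445 and 477 RPKM) and DCN (386 and 427 RPKM), while PDGFRA had 71 and 40 reads. Of the liver markers, albumin (ALB) was called down, with 12 abnormal and 271 normal reads and a log2 ratio of -4.47, while APOA1 had 298 and 281 reads. Among marker genes of dividing cells, TOP2A was called down, with 28 abnormal and 97 normal reads, while MKI67 had 544 and 313 reads and was not called. Whether cell composition had a part in any ratio below was not tested, and fewer cells of a type cannot be told apart from less RNA per cell in such tissue.

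The chromatin genes were expressed at low to moderate levels. Their median was 5.53 RPKM in the abnormal and 3.67 RPKM in the normal library, and together they held 0.254% and 0.201% of the reads. The highest levels in the abnormal library were the shorter KDM8 entry at 87.7 RPKM, SMARCD3 at 68.6 RPKM, BRD2 at 50.7 RPKM, MBD3 at 50.5 RPKM and CHD4 at 40.5 RPKM. In the normal library SMARCD3 came first at 88.0 RPKM, before KDM8 at 62.4 RPKM and BRD2 at 41.0 RPKM. SMARCD3 is the SWI/SNF subunit known for its role in heart and skeletal muscle. In the abnormal library BRD2, with an exact 95% Poisson interval of 48.2 to 53.3 RPKM, could not be ordered against MBD3, with 46.3 to 54.9 RPKM. At the other end, 20 of the 100 entries had fewer than 10 reads in at least 1 library.

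**Figure D1:**
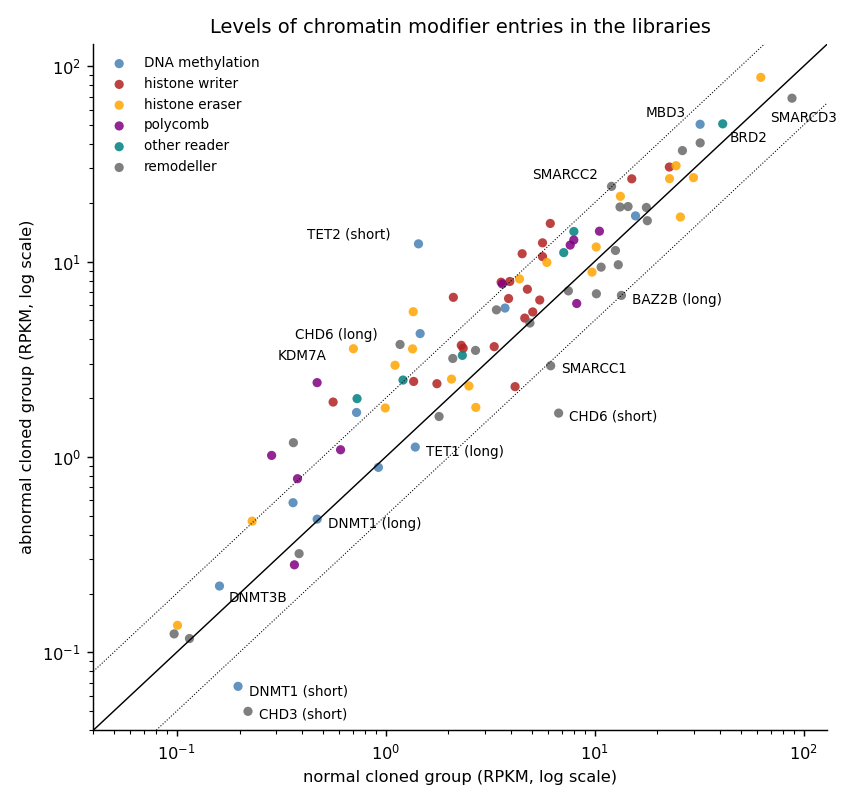
Each point is 1 of the 96 chromatin entries with reads in both libraries, with its RPKM in the normal cloned group on the horizontal and in the abnormal cloned group on the vertical axis, both on log scales. The solid line marks equal levels and the dotted lines a log2 ratio of 1 in size. Most points lie above the solid line (71 of 96, beside 68.3% of all genes with reads in both libraries). SMARCC1, the longer BAZ2B and the shorter CHD6 entry, all called down, lie on or below the lower dotted line. The shorter CHD3 and the shorter DNMT1 entry, with few reads and not called, lie below it too.

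The log2 ratio given for a gene is that of its RPKM in the abnormal library to its RPKM in the normal library, with a 95% Wilson interval that covers counting error only. A gene was called up or down at a false discovery rate (FDR) of at most 0.001 by the Audic-Claverie test when its log2 ratio was also 1 or more in size. Of the 100 entries 14 were called up and 3 down. Over all 12535 genes 12.0% were called up and 1.45% down. The median log2 ratio of the chromatin genes was 0.49, and that of all genes was 0.35. The share called up therefore lay near that of all genes. Of the genes with reads in both libraries 68.3% were higher in the abnormal library, beside 71 of the 96 chromatin entries. Because the median log2 ratio of the 7493 genes that had 10 or more reads in each library was itself 0.36, each class is also described relative to that shift. After rescaling the abnormal library by it, 4 chromatin entries were called up and 3 down, beside 6.48% and 3.97% of all genes. Among the 83 entries that were not called, 34 had an interval wholly above 0, 5 had one wholly below 0 and 40 had one that included 0, and 4 lacked reads in a library. Of the uncalled entries 15 passed the FDR with a log2 ratio of less than 1 in size, 11 of them higher and 4 lower in the abnormal library. The 4 were SMARCD3, HDAC1, CHD1 and CHD2.

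The DNA methylation machinery comprised 3 writer, 5 eraser and 6 reader entries. Of these 14 entries 2 were called up, the shorter TET2 entry and MBD1, and none was called down. Of all genes 12.0% were called up and 1.45% down. The class median was 0.54 over the 12 entries with reads in both libraries. It was 0.18 relative to the median of all genes and -0.06 relative to genes of the same transcript length. The DNMT mRNAs that were listed, DNMT1 and DNMT3B, were scarce in both libraries. No entry taken by description was DNMT3A, and DNMT3L was not found by symbol.

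DNMT1, the maintenance methyltransferase that copies methylation to the new strand, had 16 reads in each library (0.481 RPKM in the abnormal and 0.471 RPKM in the normal library). Its log2 ratio of 0.03 had an interval of -0.95 to 1.01, so a change of nearly 1 in either direction was not detectable at this depth. A further entry described as DNMT1 had 2 abnormal and 6 normal reads, a log2 ratio of -1.55 with an interval of -3.67 to 0.56. The de novo methyltransferase DNMT3B had 4 and 3 reads, a log2 ratio of 0.45 with an interval of -1.55 to 2.44. None of these was called, and their intervals allow both directions.

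Among the TET dioxygenases the ratios differed. TET2 was listed under a pair of entries. The longer, of 3804 bases over a shorter listed span, had 41 abnormal and 18 normal reads (1.69 and 0.726 RPKM). The shorter, of 534 bases on chromosome 8 (Sscrofa9, 100101794 to 100102795), had 42 and 5 reads (12.3 and 1.44 RPKM). Both TET2 entries were higher in the abnormal library, and the shorter was called up with a log2 ratio of 3.10 (1.81 to 4.40), the highest among the 96 chromatin entries with reads in both libraries. The longer had a log2 ratio of 1.22 (0.43 to 2.01) and was not called. With the reads of both entries added, TET2 had 83 and 23 reads, a log2 ratio of 1.88 (1.22 to 2.54), which was called up.

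The longer TET1 entry had 46 abnormal and 58 normal reads, a log2 ratio of -0.30 (-0.86 to 0.25), and its identifier is named SLC25A16 in RefSeq, so its identity is uncertain. A shorter TET1 entry had no read in the abnormal and 1 read in the normal library. TET3 had 19 and 12 reads, a log2 ratio of 0.69 (-0.33 to 1.72). Neither TET1 nor TET3 was called.

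The readers were more abundant than the DNMT enzymes. MBD3, a subunit of the NuRD deacetylase complex, had 542 abnormal and 351 normal reads (50.5 and 32.0 RPKM). Its log2 ratio of 0.66 (0.46 to 0.85) passed the FDR and not the required size. MBD2, which also joins NuRD and binds methylated DNA, had 171 and 160 reads, a log2 ratio of 0.13 (-0.18 to 0.44), which turned to -0.23 after rescaling. MBD1, which represses methylated promoters, had 63 and 22 reads (4.28 and 1.46 RPKM) and was called up with a log2 ratio of 1.55 (0.86 to 2.24). After rescaling its log2 ratio was 1.19 and it was no longer called. This entry (Sscrofa9 chromosome 1, 102929935 to 102946288) carries the symbol MAPK4 in the deposited table, whereas its description and its identifier in RefSeq name MBD1. The DNA glycosylase MBD4 had 79 and 52 reads, a log2 ratio of 0.63 (0.13 to 1.14), MBD5 had 15 and 16 reads, a log2 ratio of -0.06 (-1.06 to 0.93), and MBD3L5 had 1 read in the abnormal library and none in the normal library. A further entry at the position of MBD5, on the opposite strand and named MBD5 by its identifier, had 28 abnormal and 14 normal reads and was not among the entries taken by description.

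**Figure D2:**
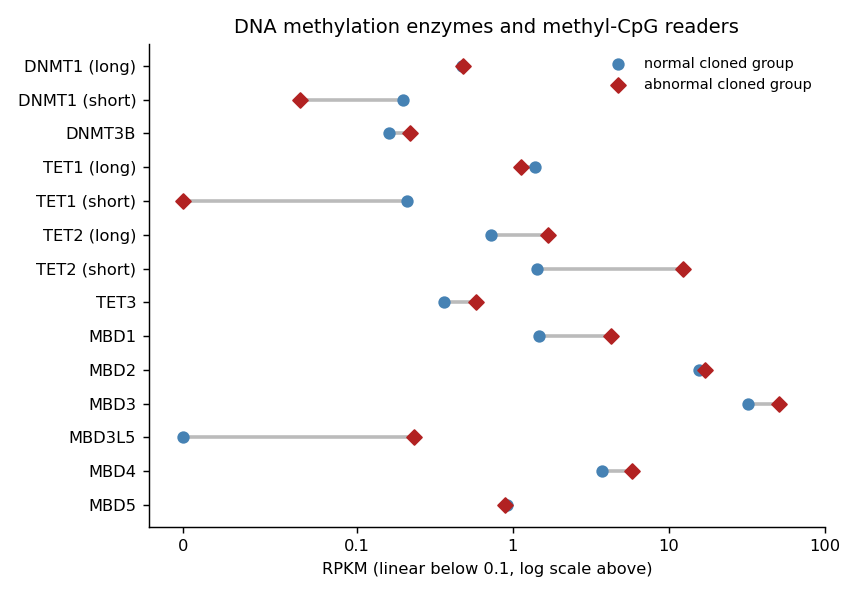
RPKM of the 14 entries of the DNA methylation machinery in the normal (blue circles) and abnormal (red diamonds) cloned group, on an axis that is linear below 0.1 and logarithmic above. The 3 DNMT entries lie below 0.5 RPKM in both libraries, MBD3 and MBD2 lie highest, and the widest gap with reads in both libraries is that of the shorter TET2 entry.

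Histone writers had the largest count called up, with 6 of 22 up and none down, beside 12.0% and 1.45% of all genes. Their median transcript length was 2647.5 bases, and 18.4% of all genes over 2000 bases were called up. After rescaling by the median ratio 1 writer was called up, beside 6.48% of all genes. In this class 20 of the 21 entries with reads in both libraries were higher in the abnormal library, with a median log2 ratio of 0.74. Of all genes with reads in both libraries 68.3% were higher. Relative to the median of all genes 16 of the 21 stayed higher, with a median of 0.38, and relative to genes of the same length 15 did, with a median of 0.16. All 5 acetyltransferases taken by description had higher RPKM in the abnormal library, and did so also after rescaling and after the length correction. Of 6 further acetyltransferases and coactivators, looked up by symbol, 1 was called up and none down, beside 12.0% and 1.45% of all genes. The called gene was CREBBP, with 361 abnormal and 172 normal reads and a log2 ratio of 1.10. Of the 4 with reads in both libraries 3 were higher and 1 was lower in the abnormal library. The lower one was NCOA3, with 1739 and 2752 reads and a log2 ratio of -0.63.

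MYST2 (KAT7), which acetylates histones at replication origins and promoters, had 260 abnormal and 104 normal reads (15.7 and 6.14 RPKM), a log2 ratio of 1.35 (1.03 to 1.68). MYST3 (KAT6A), the MOZ acetyltransferase, had 134 and 44 reads (6.56 and 2.11 RPKM), a log2 ratio of 1.64 (1.15 to 2.13). Both were called up, and MYST3 stayed so after rescaling while MYST2 did not. EP300, a general coactivator, had 479 and 260 reads with a log2 ratio of 0.91 (0.69 to 1.13), and MYST1 (KAT8), which acetylates histone H4, had 309 and 236 reads with a log2 ratio of 0.42 (0.18 to 0.66). Neither reached the required size.

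Among the methyltransferases, 4 of 17 were called up, beside 12.0% of all genes. The longer MLL2 entry, an H3 lysine 4 methyltransferase, had 291 and 122 reads (11.0 and 4.50 RPKM) and a log2 ratio of 1.29 (0.98 to 1.59). NSD1, an H3 lysine 36 methyltransferase, had 359 and 167 reads (7.84 and 3.57 RPKM) and a log2 ratio of 1.14 (0.87 to 1.40). SETD8, which monomethylates H4 lysine 20, had 104 and 48 reads, a log2 ratio of 1.15 (0.66 to 1.64), and EZH1, the polycomb methyltransferase of non-dividing cells, had 136 and 69 reads, a log2 ratio of 1.01 (0.59 to 1.43). These 4 were no longer called after rescaling, with log2 ratios between 0.65 and 0.93. SETD2, which places H3 lysine 36 trimethylation, had 424 and 246 reads in its longer entry and a log2 ratio of 0.82 (0.59 to 1.04). The log2 ratios of the class ran from -0.86, in the shorter NSD2 entry with 7 and 13 reads, to 1.77 in SETDB2, an H3 lysine 9 methyltransferase with 30 and 9 reads. Both ends were named after their values were seen, and neither was called. The SETDB2 entry carries the symbol CAB39L in the deposited table.

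Histone erasers fell into demethylases and deacetylases that did not look alike. All 10 demethylase entries were higher in the abnormal library, beside 68.3% of all genes with reads in both libraries. Their log2 ratios were 0.28 to 2.35, with a median of 0.79. Of the 10 demethylase entries 9 stayed higher relative to the median of all genes, and 8 relative to genes of the same length. The 8 deacetylases split into 4 higher and 4 lower, with a median of 0.05. Relative to the median of all genes 6 of the 8 were lower, with a median of -0.31. The difference between the groups of enzymes was not tested.

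KDM7A, listed as JHDM1D and active on H3 lysine 9 and 27, had 65 abnormal and 13 normal reads (3.58 and 0.701 RPKM), a log2 ratio of 2.35 (1.51 to 3.20). It was called up, and stayed so after rescaling and after the length correction. The longer KDM8 entry had 44 and 11 reads (5.54 and 1.36 RPKM) and was called up with a log2 ratio of 2.03 (1.09 to 2.97), which became 1.67 after rescaling and was no longer called. No deacetylase was called, beside 12.0% of all genes called up and 1.45% called down. HDAC2 had 356 and 402 reads with a log2 ratio of -0.14 (-0.35 to 0.06), HDAC3 had 294 and 258 reads with 0.22 (-0.02 to 0.46), and HDAC5, a class IIa deacetylase of muscle, had 410 and 332 reads with 0.34 (0.13 to 0.54). The signs of HDAC3 and HDAC5 turned after rescaling. HDAC1, chosen after its values were seen, had 184 and 286 reads (16.9 and 25.7 RPKM) and a log2 ratio of -0.61 (-0.87 to -0.34), which passed the FDR and not the required size.

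The polycomb entries held 1 of 11 called up and none called down, beside 12.0% and 1.45% of all genes. Their median was 0.77 over the 10 with reads in both libraries and 0.41 relative to the median of all genes. The called entry was EPC2, with 131 and 63 reads (7.69 and 3.62 RPKM) and a log2 ratio of 1.09 (0.66 to 1.52), which became 0.73 after rescaling and was no longer called. EPC1 had 243 and 183 reads with a log2 ratio of 0.44 (0.16 to 0.72). EPC1 and EPC2 are named enhancers of polycomb but are known as subunits of the NuA4 acetyltransferase complex. BMI1, a core member of polycomb repressive complex 1, had 84 and 54 reads with a log2 ratio of 0.67 (0.18 to 1.16), and PCGF1, of a variant complex, had 32 and 44 reads with -0.43 (-1.08 to 0.22). SUZ12, which polycomb repressive complex 2 needs for its activity, was named after its values were seen, and its longer entry had 14 and 4 reads.

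All 6 of the other readers were higher in the abnormal library, with log2 ratios of 0.31 to 1.45 and a median of 0.74. Of all genes with reads in both libraries 68.3% were higher. Relative to the median of all genes 5 of the 6 readers stayed higher. BRPF3, a scaffold of MYST acetyltransferase complexes, was the only one of the 6 called up, beside 12.0% of all genes. It had 48 and 18 reads (1.99 and 0.730 RPKM) and a log2 ratio of 1.45 (0.67 to 2.22), and it was no longer called after rescaling. BRD2, a BET protein that binds acetylated histones, had 1523 and 1259 reads, a log2 ratio of 0.31 (0.20 to 0.41). BRD8, of the NuA4 complex, had 249 and 142 reads and 0.84 (0.54 to 1.14), and the BET protein BRD3 had 107 and 70 reads and 0.64 (0.21 to 1.08).

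Remodellers stood lowest among the 6 classes, with a median log2 ratio of -0.02. Of 27 entries 2 were called up and 3 down, beside 12.0% and 1.45% of all genes, and 14 were lower in the abnormal library. Relative to the median of all genes 18 were lower, with a median of -0.38, and relative to genes of the same length the median was -0.44. Every call down among the 100 chromatin entries was in this class. Added together, the reads of the 8 SWI/SNF entries came to 366 per M mapped reads in each library, and 5 of the 8 entries were lower relative to the median of all genes.

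SMARCA2 (BRM), an ATPase of SWI/SNF (Sscrofa9 chromosome 1, 229848236 to 230024688), had 392 abnormal and 442 normal reads (11.4 and 12.6 RPKM). Its log2 ratio of -0.14 had an interval of -0.34 to 0.05 and was not called. SMARCD3 had 769 and 1008 reads (68.6 and 88.0 RPKM) and a log2 ratio of -0.36 (-0.49 to -0.22), which passed the FDR and not the required size. The scaffold subunits SMARCC1 and SMARCC2 went opposite ways. SMARCC1 had 67 and 144 reads (2.93 and 6.16 RPKM) and was called down with a log2 ratio of -1.07 (-1.49 to -0.66). SMARCC2 had 544 and 276 reads (24.3 and 12.1 RPKM) and was called up with a log2 ratio of 1.01 (0.80 to 1.22). The call of SMARCC2 was lost after rescaling, at 0.65, and after the length correction, at 0.35, while that of SMARCC1 stayed. The level of SMARCC2 was 1.96 times that of SMARCC1 in the normal and 8.29 times in the abnormal library. This ratio is taken within each library, so the scaling between libraries does not enter it. SMARCC1 (Sscrofa9 chromosome 13, 25404412 to 25599338) spans NDUFA4 on the opposite strand, which had 121 and 163 reads, and reads of overlapping exons could not be told apart without strand.

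Among the CHD remodellers, CHD4, the ATPase of NuRD, had 1701 and 1373 reads (40.5 and 32.0 RPKM) and a log2 ratio of 0.34 (0.24 to 0.44), close to the median of all genes. CHD2, which works at active genes, had 372 and 512 reads, a log2 ratio of -0.43 (-0.62 to -0.24). CHD1, chosen after its values were seen, had 243 and 370 reads, a log2 ratio of -0.58 (-0.81 to -0.34). Both passed the FDR and not the required size. After rescaling, 8 of the 10 CHD entries lay below the median of all genes, beside 5510 of the 10929 genes with reads in both libraries. Among these 8 were entries with few reads, namely those of CHD3 (5 and 4, and 2 and 9 reads), CHD5 (4 and 4) and CHD8 (13 and 16). The shorter CHD6 entry was also among them, while the longer CHD6 entry lay above the median. The longer BAZ2B entry, a bromodomain protein of ISWI complexes (Sscrofa9 chromosome 15, 61689004 to 61725353), had 112 and 229 reads (6.72 and 13.4 RPKM) and was called down with a log2 ratio of -1.0 (-1.33 to -0.68).

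**Figure D3:**
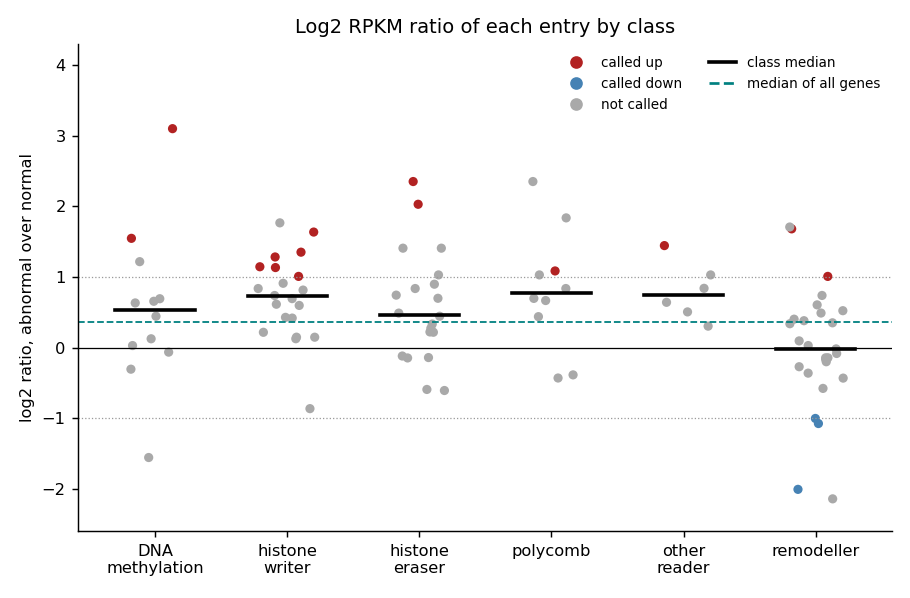
Log2 RPKM ratio (abnormal over normal cloned group) of each chromatin entry with reads in both libraries, by class. Black bars are class medians, the dashed line is the median of all genes with 10 or more reads in each library (0.36), and dotted lines mark 1 and -1. The histone writers lie highest in number of called entries (6 of 22, beside 12.0% of all genes called up). The 3 entries called down are all remodellers, whose median lies at -0.02.

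The 100 entries carried 88 gene names, since 12 names were listed under a pair of entries. In 4 of these pairs the entries lay on opposite strands, so they may not be pieces of 1 gene (BAZ2B, CHD3, MLL2 and SUZ12). In 9 pairs every entry had reads in both libraries, and in 3 of them the intervals of the log2 ratios did not overlap. The clearest was CHD6 on chromosome 17. The longer CHD6 entry, of 5496 bases over a shorter listed span, had 132 and 42 reads and was called up with a log2 ratio of 1.68 (1.18 to 2.18). The shorter, of 935 bases, had 10 and 41 reads and was called down with -2.00 (-2.98 to -1.03). Their reads added gave a log2 ratio of 0.81 (0.42 to 1.2), which was not called, so no direction can be given for CHD6 as a gene.

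The longer KDM8 entry, with a log2 ratio of 2.03, lay apart from the shorter, which had 198 and 144 reads and 0.49 (0.18 to 0.80). KDM8 as a sum had a log2 ratio of 0.67 (0.38 to 0.96) and was not called. The longer BAZ2B entry, at -1.0, lay apart from the shorter, with 60 and 62 reads at -0.02 (-0.53 to 0.49). BAZ2B as a sum reached -0.73 (-1.0 to -0.46) and was not called either, a sum over entries on opposite strands. With reads of the same name added, 12 of the 88 names were called up and 1, SMARCC1, down. Of all genes, without such adding, 12.0% were called up and 1.45% down.

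**Figure D4:**
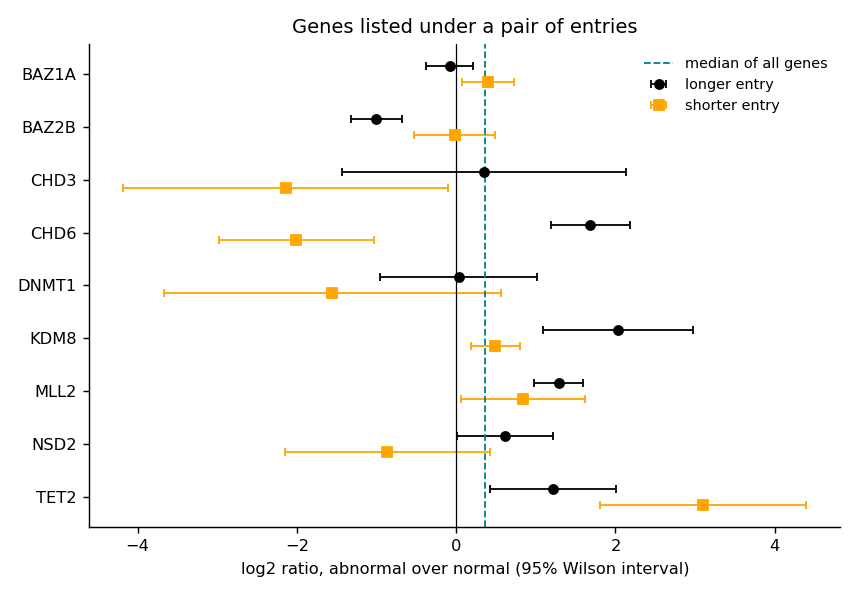
Log2 ratio with 95% Wilson interval of the longer (black circles) and shorter (orange squares) entry of the 9 gene names listed under a pair of entries with reads in both libraries. The intervals lie apart for CHD6, BAZ2B and KDM8, and overlap for the remaining 6.

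The tables also give the percent of each transcript covered by reads, a measure that the reads alone do not fix. Entries with a single read showed 49 covered bases. From this read length the cover that evenly placed reads would give was computed, and the observed cover was divided by it. The median of this ratio was 0.885 (abnormal) and 0.838 (normal) for chromatin entries with at least 10 reads, and 0.889 and 0.856 for all such genes. Of the entries with at least 10 reads in a library, 3 had a ratio below 0.5 there. They were chosen by this ratio. The 41 normal reads of the shorter CHD6 entry covered 33.8% of it where 89.0% would be reached by even placement, and the 10 abnormal reads covered 32.8%. The 20 abnormal reads of ASXL2, a polycomb-associated protein, all lay on 49 of its 4050 bases. The longer BAZ1A entry had 0.421 of the even cover among abnormal reads and 0.429 among normal reads. SMARCC1 had 53.7% of its length covered by 67 abnormal reads and 59.2% by 144 normal reads. The shorter TET2 entry was covered over 91.8% by its abnormal and over 42.5% by its normal reads, near what even placement gives.

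Chromatin genes have long transcripts, with a median of 2484 bases against 1479 bases for all genes, and in these libraries the log2 ratio moved with length. The median log2 ratio over all genes read in each library was 0.11 for transcripts of up to 1000 bases and 0.68 above 4000 bases. The median of the chromatin genes was 0.49 up to 1000 bases (14 entries) and 0.41 from there to 2000 bases (25 entries). It was 0.74 to 4000 bases (34 entries) and 0.34 above (27 entries). These counts include the 4 entries without a read in a library, which the medians leave out. All genes had 0.32 and 0.51 in the middle bins, so both rose there, and the chromatin genes were lower in the longest bin. Across the 96 entries with reads in both libraries Spearman's rho of log2 ratio and length was -0.08, and across the 7493 genes of the median above it was 0.21, a description over genes that share the libraries. Among transcripts over 2000 bases 11 of the 61 chromatin entries were called up, beside 18.4% of all genes of that length. The count thus lay at the level of other long transcripts.

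**Figure D5:**
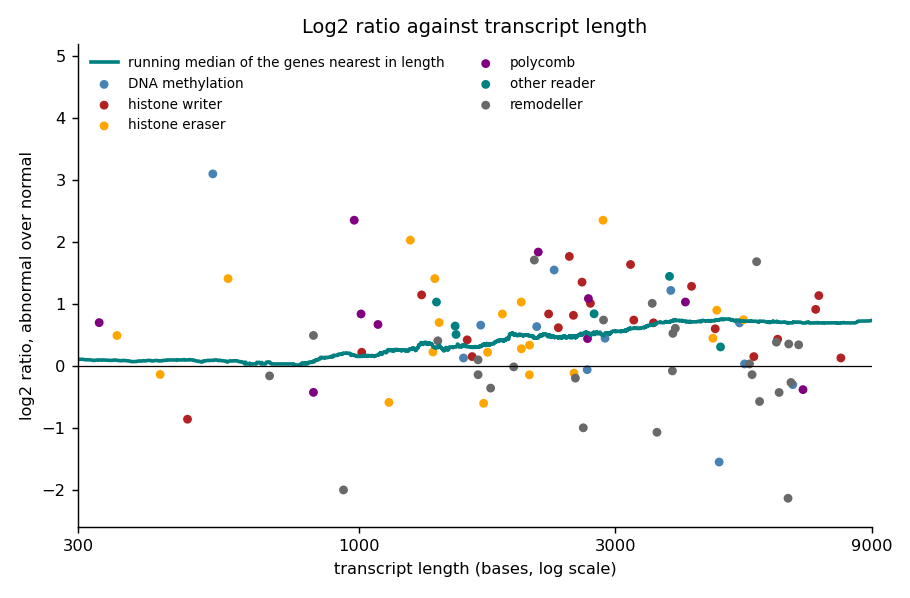
Log2 ratio of each chromatin entry with reads in both libraries against transcript length in bases (log scale), coloured by class. The line is the running median over genes nearest in length, among those with 10 or more reads in each library. It rises from near 0.1 for short transcripts to about 0.7 for the longest, while most remodellers lie below it.

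Other genes of chromatin regulation that the descriptions did not select were looked up by symbol from a list of 111 symbols. Of these 7 were already among the entries above, 32 were not found by symbol, and the rest gave 73 entries. Of the 73 entries 15 were called up (20.5%) and 0 down, beside 12.0% and 1.45% of all genes. After rescaling by the median ratio 4 of the 73 were called up and 0 down, beside 6.48% and 3.97% of all genes. Their median log2 ratio was 0.33, and that of all genes 0.35. Called entries with large log2 ratios, given in brackets after the abnormal and normal reads, were AHCYL1, related to the enzyme that clears S-adenosylhomocysteine, with 28 and 6 reads (2.25), methionine synthase MTR with 34 and 9 reads (1.95), the polycomb cofactor JARID2 with 102 and 35 reads (1.57), the SWI/SNF subunit DPF2 with 312 and 110 reads (1.54), and the deacetylase SIRT1 with 61 and 22 reads (1.5).

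By group, 4 of the 13 further remodeller subunits were called up, beside 12.0% of all genes. In the abnormal library 12 of the 13 were higher, beside 68.3% of all genes with reads in both libraries. Of these subunits 8 stayed higher relative to the median of all genes. The 4 heterochromatin proteins all lay below the median of all genes, as did 5510 of the 10929 genes with reads in both libraries. None of the 4 was called, beside 12.0% of all genes called up and 1.45% down. Without rescaling 3 were lower and 1 was higher in the abnormal library. The intervals of CBX5 (299 against 441 reads, -0.53) and CBX1 (110 against 146 reads, -0.38) lay below 0. Those of ATRX (11 against 22 reads, -0.97) and of the higher DAXX (217 against 213 reads, 0.06) included 0. Of the 7 partners of DNA methylation none was called, beside 12.0% of all genes called up and 1.45% down. Of the 6 with reads in both libraries 5 were higher in the abnormal library, beside 68.3% of all genes. GADD45G had 311 and 200 reads (45.0 and 28.3 RPKM). Its log2 ratio of 0.67 (0.41 to 0.92) passed the FDR and not the required size. The 1 lower partner, UHRF1, which brings DNMT1 to newly copied DNA, was scarce, with 14 and 18 reads (0.896 and 1.13 RPKM).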

How the data were processed

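Muscle RNA of newborn cloned piglets was read as 1 library per pool. The authors filtered the reads, aligned them to Sscrofa9 transcripts with SOAPaligner/soap2 (at most 2 mismatches) and deposited, per transcript, the count of unique reads, the RPKM and the percent of bases covered. Transcripts absent from a table were set to 0 reads. A floor of 3 reads is 0.470 RPM (abnormal) or 0.460 RPM (normal), and intervals cover counting error only.

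Chromatin genes were found by their protein description, and gene names came from that description, beside 68 entries whose identifier had a symbol in RefSeq. The genes, classes and lists were chosen with earlier results of these data known. The Audic-Claverie test (two-sided by doubling) was run on all 12535 genes with Benjamini-Hochberg adjustment, and an RPKM of 0 was set to 0.001 in log2 ratios. No fold is given for the 4 chromatin entries without a read in a library, each with at most 3 reads. Named entries were SMARCA2, every DNA methylation entry and, in each other class, up to 6 called entries with the largest ratios, every entry called down and the 3 uncalled entries with most reads. Of the further symbols, the 6 called entries with the largest ratios were to be named, and 1 of them is not reported here. All other entries named, such as SUZ12, ASXL2, BAZ1A, UHRF1, CBX5 and the second entries of a gene, were chosen after their values were seen. Of the chromatin entries 25 overlap another entry in position. The longer TET2 and the longer CHD6 entry list a span shorter than their transcript, so their position or length is uncertain.

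Alternatives were rescaling by the median ratio or edgeR's TMM, totals without mitochondrial transcripts, edgeR's exact test at an assumed variation of 0.2 or 0.4, Fisher's exact test, other read, ratio and FDR limits, a pseudocount of 1, a length correction by the running median of 501 genes, 1 entry where positions overlap, and leaving out complex subunits. Adding reads of the same name, and leaving out unevenly covered entries, were chosen after seeing the data. The tests were tried on simulated data. Python 3.11.15, scipy 1.17.1, R 4.3.3 and edgeR 4.0.16 were used.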

Additional observations from a re-analysis of the deposited data

How the results depend on the processing

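The chromatin calls depended on the scaling of the libraries. Rescaling by the median ratio left 4 entries up, with a median log2 ratio of 0.13, and TMM left 4 up with 0.10. Of all 12535 genes 812 were up and 498 down under the former, and 751 up and 548 down under TMM. Under each of these scalings, 1 entry was up in each of the DNA methylation, remodeller, writer and eraser classes and 0 in the polycomb and other reader classes, and 4 further chromatin genes were up, with 1 down under TMM. With totals without mitochondrial transcripts 8 entries were up, with a median of 0.24, 1 of them a remodeller and 3 writers, 0 polycomb or other readers, and 6 further genes were up. Of all genes 987 were then up and 369 down. With an assumed variation of 0.2 or 0.4 between libraries, each a pool of piglets, edgeR's exact test called 0 chromatin entries up and 0 down in every class. It called 0 further genes. Of all genes it called 243 up and 20 down at 0.2, and 2 up and 1 down at 0.4.

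The length correction turned the median to -0.0098, with 5 entries up and 5 down, the latter all remodellers, of which 0 were up. Of all 12535 genes the correction called 926 up and 313 down. It left 1 writer, 0 polycomb entries and 0 other readers up, and 4 further genes up and 2 down. A log2 ratio of at least 0.5 gave 23 up and 5 down, with 5 erasers up and 1 down, 2 other readers up and 3 further genes down. Of all genes 2143 were then up and 454 down. A log2 ratio of at least 2 gave 3 up and 1 down, with 1 DNA methylation entry up, 1 remodeller down, 0 remodellers, writers, polycomb entries or other readers up, and 2 further genes up. Of all genes 415 were then up and 42 down. A minimum of 10 reads in both libraries left 1 DNA methylation entry up, since the shorter TET2 entry had 5 normal reads. Of the 7493 genes with such reads 1386 were up and 158 down. An FDR of at most 0.05 gave 2 polycomb entries up, beside 1974 of all 12535 genes up and 342 down. The pseudocount of 1 gave 9 up and 1 down, a median of 0.37, 1 remodeller up and 1 down, 0 polycomb entries or other readers up, and 9 further genes up. Of all genes 1267 were then up and 152 down. Adding the reads of the same name left 1 name down.

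Signs turned for MBD2 (-0.23, -0.27 and -0.12 under median ratio rescaling, TMM and totals without mitochondrial transcripts), the longer DNMT1 entry (-0.33, -0.36 and -0.22), HDAC3 (-0.14, -0.17 and -0.028), HDAC5 (-0.024 and -0.058 under median ratio rescaling and TMM), BRD2 (-0.054 and -0.088) and CHD4 (-0.020 and -0.053). Under the length correction they turned for MBD2 (-0.20), DNMT1 (-0.69), HDAC3 (-0.13), HDAC5 (-0.15), BRD2 (-0.45), CHD4 (-0.37), TET3 (-0.042), DNMT3B (-0.085) and EPC1 (-0.092). None of these was called under the main settings, and the cause was not tested beyond the construction of each scaling. The shorter TET2 entry, KDM7A and MYST3 remained called up, and the shorter CHD6 entry, the longer BAZ2B entry and SMARCC1 called down, under median ratio rescaling, TMM, totals without mitochondrial transcripts and the length correction. No paired analysis was possible because each group is 1 pooled library. Depth limits what can be said of DNMT1, DNMT3B, TET3, MBD5 and SUZ12, and leaving out a replicate was not possible.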
